A study of Drosophila melanogaster with 8 samples.

Results

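Capped analysis of gene expression (CAGE) counts the capped 5′ ends of RNA, so that each tag marks a transcription start site. The regions described here are 366 weak tag clusters (TCs, runs of start positions on 1 strand) of chromosome arm 3R of Drosophila melanogaster S2 cells that held tags almost only in the libraries labelled control. They were chosen among 153225 TCs of 3R from position 400000 of genome build dm3 on, and 688364 TCs in all. A member had a mean under 10 tags per 1000000 tags of the library (TPM) over the 8 libraries, at least 0.5 TPM in each of the 4 libraries labelled control, and a mean of at most 0.05 TPM in the 4 libraries labelled exosome knockdown. The first 2 limits alone left 4934 TCs on 3R, of which the 366 members are 7.42%. The members were therefore chosen by the contrast between the groups, and their own contrast is given as a description without a test.

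The study asked where transcription starts in S2 cells, a line of embryonic origin that grows without other cell types, and which of the resulting RNAs are removed by the RNA exosome. Cells of both groups were grown at 27 °C, received 40 µg of double-stranded RNA (dsRNA) per treatment, were treated again after 2 days and were harvested 4 days after the first treatment. By the study's methods the dsRNA of the knockdown was directed against Rrp6 and Dis3 together, and that of the control against GFP, which the cells do not carry. No library had only 1 of the 2 nucleases targeted. RNA interference lowers a protein and does not remove it, and CAGE of total RNA from a culture cannot tell fewer cells with a transcript from less transcript per cell.

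The RNA exosome is a complex that degrades RNA from its 3′ end. Dis3 and Rrp6 are its catalytic subunits, and Rrp6 acts mainly in the nucleus. Among its known substrates are short non-coding RNAs that start upstream of gene promoters on the opposite strand (promoter upstream transcripts, PROMPTs) and RNAs that start at enhancers (enhancer RNAs), which are removed soon after they are made. Capped 5′ ends of such RNAs are rare in untreated cells and accumulate where the exosome is depleted.

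Which libraries were depleted had to be read with care, because the group words of the sample labels and of the deposited tables ran opposite ways for all 8 samples. Low values in the KD columns of the study's table of open chromatin sites were whole tags of the 4 libraries labelled control, and those of the GFP columns were whole tags of the 4 libraries labelled exosome knockdown. The match was unique for 8 of 8 columns, with 100% of low values whole within 0.02 tags. Groups below follow the sample labels, and log2 fold changes are those of the libraries labelled control over the libraries labelled exosome knockdown. By that table's column names, the members were thus seen almost only in exosome-depleted cells, and by the sample labels almost only in control cells. Start sites of Rrp6 and Dis3 were not analysed here, nor were markers of S2 cells, since the gene annotation used here belongs to a later build. For the same reason members are named by position, with no genes or sequences attached.

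Library totals were 36806292 to 46388382 tags in the libraries labelled control and 33565925 to 43903483 tags in those labelled exosome knockdown, so that a single tag was worth about 0.0216 to 0.0272 TPM in the libraries labelled control and 0.0228 to 0.0298 TPM in those labelled exosome knockdown. No 2 libraries were copies of each other. The sample descriptions do not say whether the replicates were separate cultures, and p-values measure the spread between these libraries. They also name pools of 4 barcoded libraries without naming the pool of each library. Pool and group cannot be told apart in case each group was sequenced as a pool of its own.

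Summed over the 366 members, the libraries labelled control held 541, 514, 649 and 456 TPM in replicates 1 to 4, against 11.8, 7.69, 4.89 and 10.8 TPM in the libraries labelled exosome knockdown. The means were 540.1 ± 81.1 TPM in the libraries labelled control, against 8.79 ± 3.13 TPM in the libraries labelled exosome knockdown (SD, n = 4 each). Every library labelled control stood far above every library labelled exosome knockdown and, among the libraries labelled control, replicate 3 was the highest. A member had 97 to 1420 tags over the 4 libraries labelled control, with a median of 208, and 0 to 8 tags over the 4 libraries labelled exosome knockdown, with a median of 4. In the libraries labelled exosome knockdown, 38 members had no tag at all, 135 had 1 to 3 tags and 193 had 4 or more. Only 23 members had a tag in each of these 4 libraries, and no member had more than 7 tags in any of them.

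**Figure D1:**
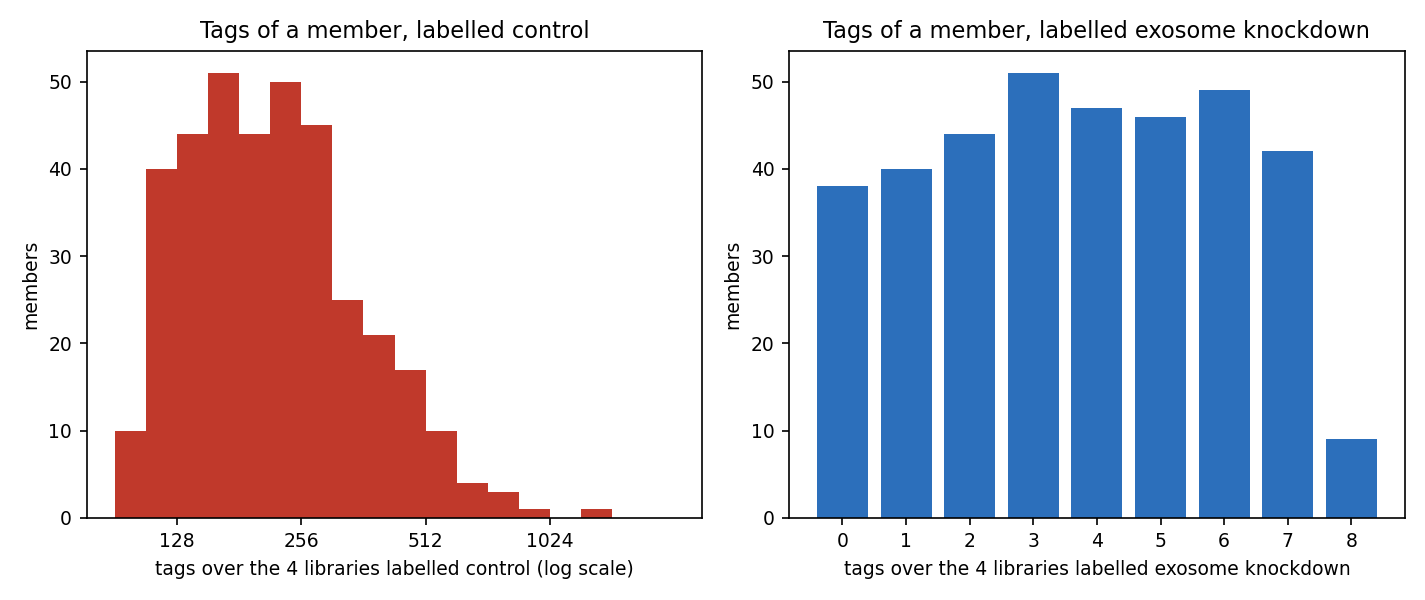
Number of members (vertical axes) by their summed tags over the 4 libraries labelled control (left, log scale) and over the 4 libraries labelled exosome knockdown (right). The left values run between 97 and 1420 tags and the right values between 0 and 8 tags, with 38 members at 0.

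Levels in the libraries labelled exosome knockdown ran on past the limit without a gap. Of the other 4568 TCs of 3R that met the first 2 limits, 240 had a mean of 0.05 to 0.1 TPM in the libraries labelled exosome knockdown, 332 had 0.1 to 0.2 TPM and 2434 had 1 TPM or more. The 3 members just inside the limit had 0.0499, 0.0494 and 0.0494 TPM there and 1.52, 1.23 and 1.13 TPM in the libraries labelled control, and the 3 TCs just outside it each had 0.0504 TPM there and 2.19, 3.85 and 1.33 TPM in the libraries labelled control. All 6 regions had 8 tags in the libraries labelled exosome knockdown. With the roles of the groups exchanged, the same 3 limits gave 7 TCs on 3R, and over all arms and scaffolds, with 3R from the same position on, they gave 1820 TCs as written and 26 when exchanged. Shares of the TCs under the first 2 limits that met all limits were 7.42% on 3R, 8.39% on 2L, 7.62% on 2R, 9.65% on 3L, 8.48% on X and 14.1% on chromosome 4.

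The member with the highest level lay on the minus strand at 25615209 to 25615245. It had 8.52, 5.70, 8.36 and 11.8 TPM in the libraries labelled control, against 0.0228, 0.0298, 0.0260 and 0.0820 TPM in the libraries labelled exosome knockdown, which are 1420 tags against 6. The plus-strand member at 4982785 to 4982791 followed with 6.01, 7.46, 4.72 and 5.57 TPM in the libraries labelled control, and 1 tag each in replicates 1 and 4 of the libraries labelled exosome knockdown. These are 975 tags against 2. Limits from a count of 0, given below, cover counting error only, because tags amplified by PCR are not independent molecules.

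The third of the 10 highest members, at 17483400 to 17483404 on the minus strand, had 5.06, 3.26, 7.03 and 3.83 TPM in the libraries labelled control and lacked tags in all 4 libraries labelled exosome knockdown. Its 816 tags against 0 make it at least 250-fold higher in the libraries labelled control, taking 3 tags over the group as what a count of 0 allows. The fourth and the fifth show how far replicates spread. At 27252879 to 27252882 on the minus strand, values were 4.34, 3.39, 7.80 and 2.09 TPM in the libraries labelled control, against 0.0456, 0.0596, 0.0520 and 0.0273 TPM. At 10547490 to 10547521 on the minus strand, they were 4.84, 5.91, 5.54 and 1.22 TPM in the libraries labelled control, against 0.0228, 0.0596, 0.0520 and 0.0547 TPM in the libraries labelled exosome knockdown. Replicate 4 was the lowest of the libraries labelled control in both.

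The other 5 of these members had means of 3.53 to 3.97 TPM in the libraries labelled control and 5 or 7 tags over the libraries labelled exosome knockdown. They began at 16087879, 12033931 and 18450250 on the plus strand and at 17690836 and 26577893 on the minus strand. In the libraries labelled control the member at 16087879 had 3.82, 3.10, 5.24 and 3.72 TPM. Replicates spread more widely at 12033931, with 2.27, 2.29, 4.87 and 5.81 TPM, and at 18450250, with 3.94, 4.15, 5.65 and 1.25 TPM. As the rule requires, none of the 10 had a library labelled control as low as any library labelled exosome knockdown.

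**Figure D2:**
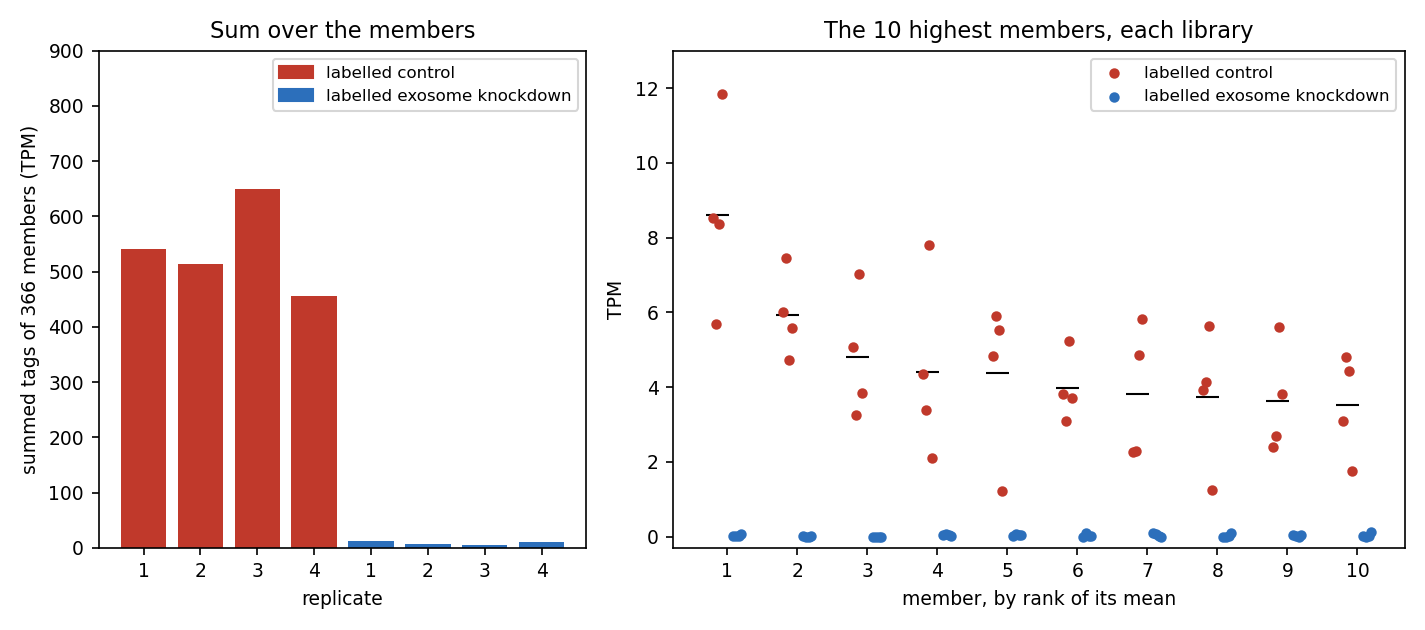
Left: TPM summed over the 366 members in each library (bars start at 0). Right: TPM of the 10 members with the highest mean in each of the 4 libraries labelled control (red, left of each pair, black line at the mean) and the 4 libraries labelled exosome knockdown (blue). Sums were 456 to 649 TPM in the libraries labelled control and 4.89 to 11.8 TPM in the libraries labelled exosome knockdown.

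Among the 38 members without a tag in the libraries labelled exosome knockdown, the 5 with the highest counts had 816, 409, 383, 373 and 362 tags in the libraries labelled control. After the region at 17483400, these were the plus-strand member at 19747435 to 19747464 (2.38, 2.23, 3.54 and 1.47 TPM in the libraries labelled control), the minus-strand member at 12872874 to 12872900 (2.27, 1.87, 3.13 and 1.79 TPM), the single position 17483351 on the minus strand (2.00, 1.5, 3.45 and 1.82 TPM) and the minus-strand member at 26560128 to 26560132 (2.97, 2.02, 1.83 and 1.85 TPM). They were at least 125-, 118-, 114- and 111-fold higher in the libraries labelled control. The first and the fourth of the 5 are close neighbours on the same strand.

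The rule sets a floor in the libraries labelled control but not how evenly a member is seen there. The coefficient of variation (CV, SD over mean) over these 4 libraries had a median of 29.9% for members and 26.2% for the other TCs under the first 2 limits. Members also had lower levels in these libraries, with a median of 1.26 TPM against 1.62 TPM. Whether the lower level accounts for the larger CV was not tested. At one extreme, the plus-strand member at 19746958 to 19747007 had 0.945, 0.946, 0.949 and 1.06 TPM, a CV of 5.82%. At the other, the plus-strand member at 5934153 to 5934157 had 0.922, 0.525, 0.560 and 2.77 TPM, a CV of 89.2%. Replicate 3 was the highest of the libraries labelled control for 186 members (50.8%, against 37.5% of the other TCs). Replicate 4 was the lowest for 179 of the 366 members, against 1219 of the 4568 other TCs. Among the other TCs replicate 2 was most often the lowest (1624, against 81 members). When TCs were called anew and the rule was applied without replicate 4 of the libraries labelled control, 565 regions met it, and leaving out any other single library gave between 333 and 416.

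In shape the members resembled other weak start sites. Their median width was 21 bp, against 23 bp for the other TCs under the first 2 limits, and 41 of them (11.2%, against 15.3%) were a single position. The widest, at 7638357 to 7638545 on the plus strand, covered 189 bp, had 1.17, 1.37, 2.03 and 0.869 TPM in the libraries labelled control and was among the 38 without tags in the other group. The summit, the position with the most tags, held a median of 41.5% of a member's tags, against 37.0% for the other TCs. It lay within 5 bp of the pooled summit in each of the 4 libraries labelled control for 252 members (68.9%, against 67.8%), and at the same position in all 4 for 204 (55.7%, against 54.4%). These shares were close to those of the other TCs but do not by themselves show repeatable positions. The lower quartile of the members' width was 6 bp, where no summit can lie more than 5 bp from the pooled one. The 41 single positions have the same summit by definition, and the pooled summit rests mostly on the same 4 libraries. Members were split between the strands, with 191 on plus and 175 on minus.

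Start sites around the members were not themselves chosen by the rule, but they are not wholly free of it. On the same strand, a neighbour can be a piece that trimming cut from the same region as a member. Without trimming, 205 of the 366 members were found again by overlap. How much of the neighbours' contrast comes from such pieces was not tested. A TC lies on 1 strand, so TCs on the other strand are not such pieces. The change of each TC was taken from an edgeR quasi-likelihood fit over all 253238 TCs with at least 10 tags, with Benjamini-Hochberg adjustment. At an adjusted p of 0.05 the libraries labelled control were higher for 18.6% and lower for 5.82% of these TCs, with a median log2 fold change of 0.16. Among the 39028 tested TCs with a mean of 0.5 TPM or more, 28.4% were higher and 16.1% were lower, with a median of 0.019. All 366 members were called higher, from which nothing is read. Among the 8818 other TCs of 3R that reached a mean of 0.5 TPM over the 8 libraries, which serve below as the background for neighbours, 23.8% were higher and 17.7% were lower in the libraries labelled control, and their median log2 fold change was -0.08.

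The change of these other TCs depended on how near they lay to a member. Of the 247 within 200 bp, 213 (86.2%) were higher in the libraries labelled control, 1 was lower, and the median log2 fold change was 3.64. The share higher was 72.5% at 200 to 500 bp, 59.1% at 500 to 1000 bp and 41.6% at 1 to 2 kb, with median log2 fold changes of 2.13, 1.5 and 0.65. From 2 to 5 kb it was 30.3% with a median of 0.12, and beyond 5 kb it lay between 14.1% and 21% with medians between -0.30 and -0.20. In all, 1206 of the 8818 TCs lay within 2 kb of a member, 732 of them were higher and 34 lower, and these 732 make up 34.9% of the higher calls among the 8818. The median level within 200 bp of a member was 2.51 TPM in the libraries labelled control, against 0.232 TPM in the libraries labelled exosome knockdown. Beyond 50 kb it was 1.42 TPM in the libraries labelled control, against 1.46 TPM in the libraries labelled exosome knockdown. TCs could pass the floor of 0.5 TPM, a mean over both groups, through the libraries labelled control alone. Most of the 247 within 200 bp did so, since their median in the libraries labelled exosome knockdown lay under 0.5 TPM. The same floor held at every distance, and holds for the neighbours and windows below.

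**Figure D3:**
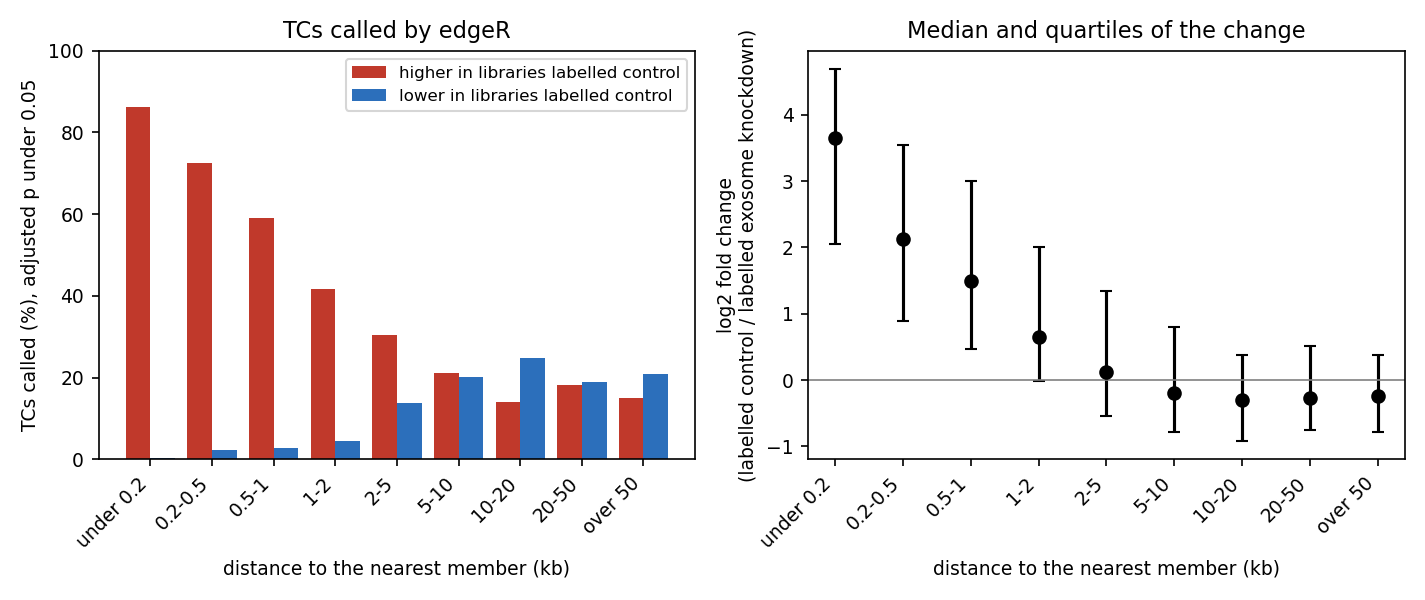
Other TCs of 3R that reached a mean of 0.5 TPM, by distance to the nearest member (horizontal axes, kb). Left: percent called higher or lower in the libraries labelled control by edgeR. Right: median log2 fold change of the libraries labelled control over the libraries labelled exosome knockdown, with bars at the quartiles. The share higher is 86.2% within 200 bp and 15.0% beyond 50 kb.

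Members are not spread evenly, so the TCs near them come from a smaller number of places. Chains of members within 10 kb of each other formed 147 groups, of which 77 were single members and 21 held 5 or more members, 165 members in all. The pattern was seen at single members too. Within 500 bp of a single member 81 of 127 other TCs (63.8%) were higher and 3 were lower in the libraries labelled control, with a median log2 fold change of 1.71, and at 500 to 2000 bp 119 of 250 (47.6%) were higher. Near members of groups of 5 or more, 161 of 173 TCs within 500 bp (93.1%) were higher and none were lower by edgeR, with a median log2 fold change of 3.57.

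The next comparison concerns divergent partners, the nearest TC on the other strand whose summit lies upstream within 500 bp and whose mean is at least 0.5 TPM. Divergent initiation, in which a pair of core promoters face away from each other, is the arrangement of PROMPTs and of many enhancer RNAs. A partner was found for 157 members (42.9%), against 40.3% of the other TCs under the first 2 limits, at a median distance of 184 bp. The partners were 133 TCs, of which 106 were not members. Among these 106, 82 were higher in the libraries labelled control, 1 was lower and 23 were not called, with a median log2 fold change of 2.16, and their median levels were 2.37 TPM in the libraries labelled control, against 0.512 TPM in the libraries labelled exosome knockdown. Of the 1346 partners of the other TCs, 34.0% were higher and 13.8% lower, with a median log2 fold change of 0.25. Partners of both sets needed 0.5 TPM only as a mean over the 8 libraries. A partner could thus pass through the libraries labelled control alone, and how many of the 82 did was not counted.

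Partners at every level followed this pattern, less so the strongest. With a mean of 0.5 to 1 TPM, 32 of 40 partners were higher in the libraries labelled control, with 1 to 3 TPM 26 of 32, with 3 to 10 TPM 14 of 16, and with 10 TPM or more 10 of 18. All TCs of the same levels, genome-wide, were higher in 29.3%, 33.2%, 29.9% and 18.3% of cases. Median log2 fold changes of the 4 classes of partners were 2.90, 2.76, 1.95 and 1.20.

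The 5 partners that rose most had log2 fold changes of 5.61 to 5.94. On the minus strand at 24983083 to 24983097, a partner had 30.3, 32.9, 52.3 and 39.1 TPM in the libraries labelled control, against 1.07, 0.775, 0.130 and 0.929 TPM in the libraries labelled exosome knockdown (log2 fold change 5.66 ± 0.41 SE, edgeR adjusted p = 5.05e-12). The member it faces, the single position 24983158 on the plus strand 69 bp away, had 241 tags in the libraries labelled control and 1 tag in the libraries labelled exosome knockdown. The partner had a far higher level than its member, and exceeded the limit of the rule in the libraries labelled exosome knockdown. A second, on the plus strand at 10513440 to 10513474, had 9.06, 9.82, 7.87 and 6.82 TPM in the libraries labelled control, against 0.205, 0.298, 0 and 0.0273 TPM in the libraries labelled exosome knockdown (log2 fold change 5.91, adjusted p = 4.33e-10). The other 3 were at 17482201 to 17482232 and at 1128673 on the minus strand and at 12066915 on the plus strand, with means of 1.04, 3.13 and 3.44 TPM in the libraries labelled control and 0.0125, 0.0593 and 0.0598 TPM in the libraries labelled exosome knockdown. Their groups did not overlap, from which nothing is read, since they were picked for the largest changes. Every library labelled control stood above every library labelled exosome knockdown for 17.3% of all TCs tested, most of which averaged under 0.5 TPM.

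A single partner, position 10557230 on the minus strand, fell in this fit, and 2 partners were lower in the fit with the replicate block. It had 91.8, 113, 73.6 and 72.6 TPM in the libraries labelled control, against 261, 176, 260 and 204 TPM in the libraries labelled exosome knockdown (log2 fold change -1.35 ± 0.24 SE, edgeR adjusted p = 5.74e-05). Its member, 176 bp away at 10557393 to 10557414 on the plus strand, had 105 tags in the libraries labelled control and 7 in the libraries labelled exosome knockdown. At this place the strong TC was lower in the libraries labelled control, beside a member that the rule requires to be higher there.

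Most neighbours in the other 3 arrangements were also higher in the libraries labelled control. Upstream on the same strand, 160 members (43.7%, against 60.2% of the other TCs) had a neighbour within 500 bp, and 100 of the 103 neighbours that were not members were higher and none were lower by edgeR, against 32.3% higher among the neighbours of the other TCs. Downstream on the same strand, 132 members (36.1%, against 57.1%) had a neighbour, and 72 of 80 were higher and 2 lower, against 30.5% higher. Downstream on the other strand, where initiation is convergent, 124 members (33.9%, against 40.1%) had a neighbour, and 69 of 87 were higher and none were lower by edgeR, against 33.7% higher. Neighbours on the same strand lay at median distances of 165 bp upstream and 168.5 bp downstream. How many of them were pieces that trimming cut from the same region as a member was not tested. No neighbour in any of the 4 arrangements was found for 81 members (22.1%, against 10.9%).

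**Figure D4:**
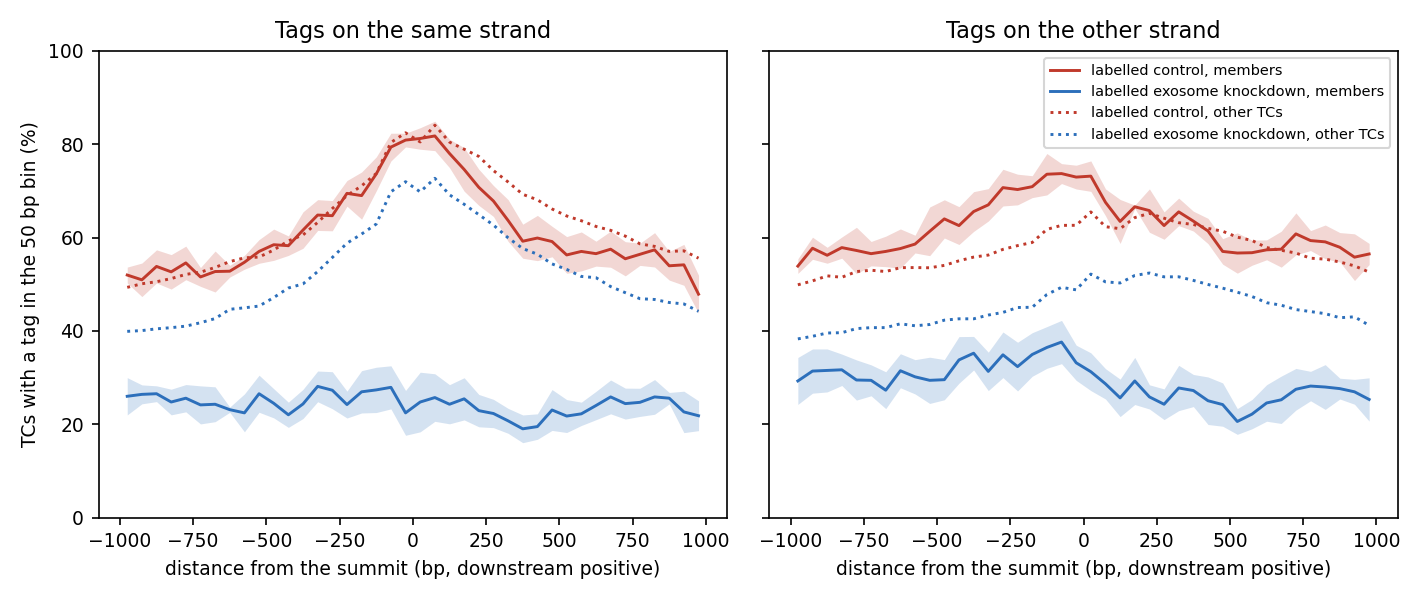
Percent of members (solid lines, shading is 1 SD over 4 libraries) and of the other TCs under the first 2 limits (dotted lines) with at least 1 tag in each 50 bp bin, by distance from the summit, on the same strand (left, the TC's own tags left out) and on the other strand (right). In the libraries labelled control the members' share at 50 to 100 bp downstream on the same strand is 81.8%, and in the libraries labelled exosome knockdown it is 25.8%.

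Single tags around the summits were counted without any call of neighbouring TCs. On the same strand, with each member's own tags left out, 81.8% of members had a tag at 50 to 100 bp downstream in the libraries labelled control, on average, against 25.8% in the libraries labelled exosome knockdown. For the other TCs these shares were 84.1% and 72.7%. On the other strand at 50 to 100 bp upstream, 73.7% of members had a tag in the libraries labelled control, against 37.6% in the libraries labelled exosome knockdown, and the shares for the other TCs were 62.6% and 49.4%. These bins also hold tags of other members, whose contrast the rule fixed. On the same strand they can also hold tags that trimming cut from a member's own region. With the tags of all members left out, a check chosen after the data were seen, the shares of members were 80.7% in the libraries labelled control, against 24.6% in the libraries labelled exosome knockdown, on the same strand, and 73.3% against 36.8% on the other strand. Such shares rise with library size, whose ranges overlapped between the groups. They can also rise with the number of positions that hold a tag, whose ranges did not overlap. It was 1991067 to 2526327 in the libraries labelled control, against 1528673 to 1868856 in the libraries labelled exosome knockdown. How much of the difference in shares comes from this was not tested.

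Strong TCs were less often close to members than to the other TCs under the first 2 limits. A TC of 10 TPM or more on average lay within 500 bp of 61 members (16.7%), against 31.5% of the other TCs under the first 2 limits. Median distances to the nearest strong TC were 2792 bp and 1159.5 bp, and 35.5% of members, against 16.8% of the other TCs, lay more than 5 kb away. Of the 61 members near a strong TC, 29 had it upstream on the other strand, the arrangement of a PROMPT. These are 7.92% of all members, close to the 6.65% (304) of the other TCs. Another 16 had it upstream on the same strand, 6 downstream on the same strand and 10 downstream on the other strand. Upstream on the same strand the shares were 4.37% of members, against 15.2% (696) of the other TCs.

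Those 61 members lay next to 44 strong TCs, of which 31 were higher in the libraries labelled control, 1 was lower and 12 were not called by edgeR, with a median log2 fold change of 2.02. Genome-wide, among tested TCs of 10 TPM or more, 18.3% were higher and 25.0% lower, and among the 768 strong TCs next to the other weak TCs of 3R 21.6% were higher and 23.2% lower, with a median of -0.17. The level of 10 TPM is a mean over the 8 libraries, so a TC can reach it through the libraries labelled control alone. The plus-strand TC at 5169390 to 5169430 did so, with means of 22.2 TPM in that group and 0.201 TPM in the other. How many of the 31 did so was not counted, and the background sets were held to the same level. Most of the 10 highest of the 44 were not called. On the minus strand at 26213577 to 26213580, the first had 3835, 5347, 4394 and 4133 TPM in the libraries labelled control, against 3256, 3789, 3789.6 and 3387 TPM in the libraries labelled exosome knockdown (log2 fold change 0.30, adjusted p = 0.31). Of the 10 with the highest mean, 3 were higher in the libraries labelled control, 1 was lower (position 10557230, above) and 6 were not called.

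The strongest TC that rose was the single position 24983853 on the plus strand, with 1299.9, 1341, 1363 and 899.9 TPM in the libraries labelled control, against 319, 232, 167 and 347 TPM in the libraries labelled exosome knockdown (log2 fold change 2.19 ± 0.24 SE, edgeR adjusted p = 1.68e-08). Its member at 24983688 to 24983781 on the minus strand had 275 tags in the libraries labelled control and none in the libraries labelled exosome knockdown. The plus-strand TC at 15497173 to 15497175 had means of 443 ± 57.7 TPM in the libraries labelled control, against 149 ± 34.5 TPM in the libraries labelled exosome knockdown (SD, n = 4 each), a log2 fold change of 1.58 with an edgeR adjusted p of 1.78e-06, and 3 members had it as their nearest strong TC. Position 5909036 on the plus strand is described with its window below.

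The 6 strong TCs that were not called began at 26213577, 26291774, 14743991, 18408937, 23109502 and 26214554, with log2 fold changes of 0.30, -0.41, 0.51, 0.12, -0.08 and 0.26. That at 14743991 to 14744012 on the plus strand, 808 ± 61.8 TPM in the libraries labelled control, against 561 ± 80.3 TPM in the libraries labelled exosome knockdown, was just short of the threshold (adjusted p = 0.0671) and passed it in the fit with the replicate block (adjusted p = 0.0322). Next to the TC at 18408937 to 18408959 on the minus strand (169 ± 40.1 and 156 ± 41.6 TPM), the plus-strand member at 18409063 to 18409105 had 457 tags in the libraries labelled control and 2 in the libraries labelled exosome knockdown. This member, which the rule holds to a difference, lay beside a strong TC for which no difference was detected.

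**Figure D5:**
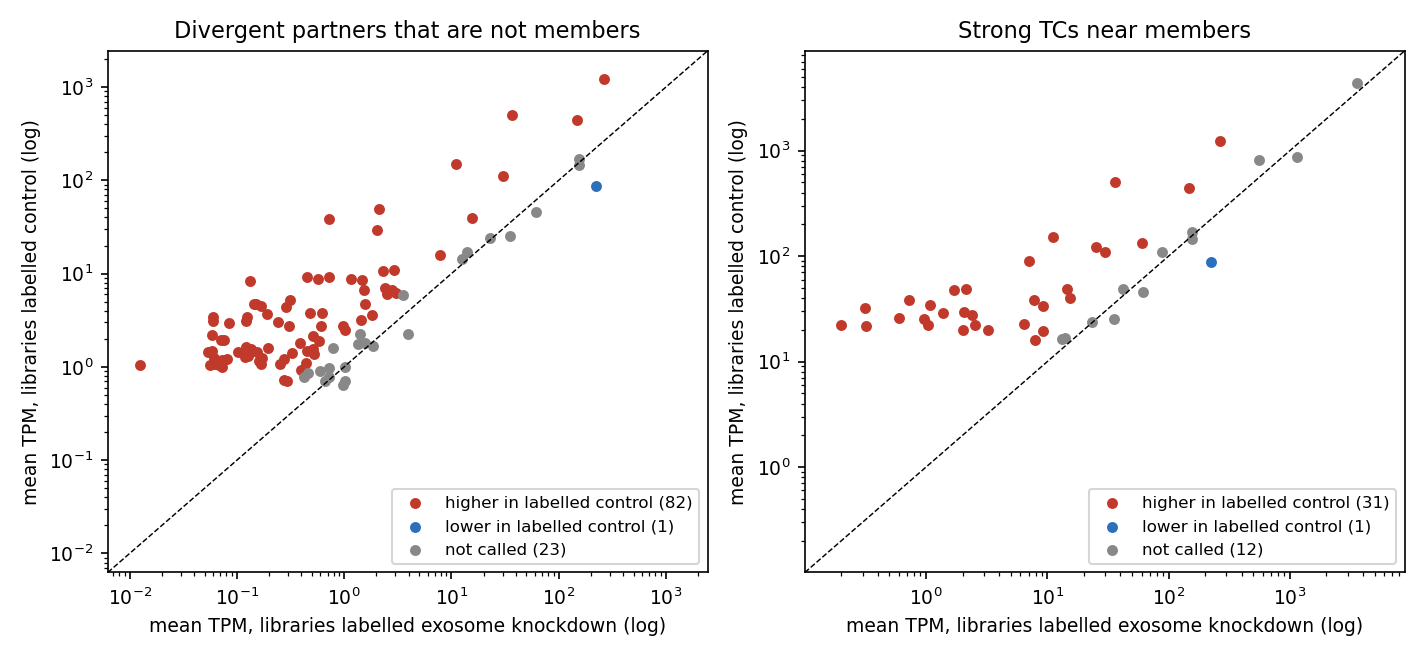
Mean TPM in the libraries labelled control (vertical, log scale) against mean TPM in the libraries labelled exosome knockdown (horizontal, log scale) for the 106 divergent partners that are not members (left) and the 44 strong TCs nearest to members (right). Points above the dashed line of equal means are higher in the libraries labelled control, 82 and 31 of them by edgeR.

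Members gathered in particular places of the arm. Another member lay within 500 bp of 191 members (52.2%) and within 10 kb of 289 (79.0%). In steps of 2 Mb along 3R the members made up between 1.41% (5 of 354, from 8 to 10 Mb) and 12.3% (41 of 334, from 12 to 14 Mb) of the TCs under the first 2 limits. Mutual divergent pairs, in which 2 members are each other's partner, numbered 9, with distances of 43 to 407 bp.

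The pair with the highest sum lay at 10515728 to 10515748 on plus and 10515478 to 10515495 on minus, 247 bp apart. In the libraries labelled control the plus member had 2.59, 2.36, 3.84 and 2.20 TPM and the minus member 2.25, 1.79, 3.71 and 1.17 TPM, against 6 and 2 tags in the libraries labelled exosome knockdown. Both strands were highest in replicate 3 and lowest in replicate 4. The following pairs began on plus at 26415821, 25615415, 19152627 and 19130815 and on minus at 26415594, 25615349, 19152367 and 19130486. Their plus members had means of 2.03, 1.36, 1.58 and 1.07 TPM in the libraries labelled control and their minus members 2.86, 2.82, 1.91 and 1.42 TPM. In the last of them both members had 0 tags in the libraries labelled exosome knockdown, against 183 tags on plus and 239 on minus in the libraries labelled control.

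Among windows of 10 kb, 3 held 11 members each. The first, at 5906418 to 5916417, had summed member levels of 13.5, 14.8, 17.8 and 10.8 TPM in the libraries labelled control, against 0.273, 0.179, 0.182 and 0.301 TPM in the libraries labelled exosome knockdown. All 9 other TCs of at least 0.5 TPM in it were higher by edgeR. The strongest of them was position 5909036 on the plus strand, with 313, 338, 806 and 542 TPM in the libraries labelled control, against 57.8, 38.1, 22.2 and 27.5 TPM in the libraries labelled exosome knockdown (log2 fold change 3.68 ± 0.31 SE, edgeR adjusted p = 9.58e-11). This TC, which the rule did not use, was far stronger than any member.

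The second window, at 12032984 to 12042983, held its 11 members within 5292 bp, 7 on plus and 4 on minus. Their sums were 15.8, 16.8, 17.7 and 17.99 TPM in the libraries labelled control, against 0.410, 0.209, 0.130 and 0.629 TPM in the libraries labelled exosome knockdown. All 19 other TCs of at least 0.5 TPM there were higher by edgeR, the strongest on the minus strand at 12033837 to 12033853 with 163, 146, 101 and 193 TPM in the libraries labelled control, against 14.1, 8.58, 8.58 and 13.2 TPM in the libraries labelled exosome knockdown. The plus-strand member at 12033931 to 12033939, among the 10 highest, is 102 bp from it and has it as divergent partner.

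In the third window, at 17482416 to 17492415, 9 of 11 members were on the minus strand, within 3256 bp. Sums were 16.3, 12.7, 26.9 and 13.3 TPM in the libraries labelled control, against 0.205, 0.298, 0.234 and 0.0820 TPM in the libraries labelled exosome knockdown. Of 13 other TCs of at least 0.5 TPM 7 were higher and none were lower by edgeR. The strongest, on the minus strand at 17488670 to 17488691, averaged 1105 ± 169 TPM in the libraries labelled control, against 295 ± 29.7 TPM in the libraries labelled exosome knockdown (SD, n = 4 each), a log2 fold change of 1.89. The member at 17483400 belongs to this window, downstream of that strong TC on the same strand.

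The next window in order, at 10530150 to 10540149 and named after its values were seen, had 10 members, none of them nearer than 7139 bp to a strong TC. Their sums were 18.3, 19.0, 29.5 and 10.7 TPM in the libraries labelled control, against 0.273, 0.179, 0.156 and 0.301 TPM in the libraries labelled exosome knockdown. Its strongest other TC, at 10537202 to 10537204 on the minus strand, had only 11.4, 11.3, 14.7 and 10.6 TPM in the libraries labelled control, against 0.592, 0.536, 0.546 and 1.04 TPM in the libraries labelled exosome knockdown, and all 6 other TCs of at least 0.5 TPM were higher by edgeR.

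Loci assayed by RT-qPCR in the same work numbered 3 in this stretch of 3R, and only that of CG9399 had a member within 500 bp of its centre. Near the site listed for the PROMPT of CG9399, the plus-strand member at 5399467 to 5399522 had 0.742, 0.709, 0.862 and 0.571 TPM in the libraries labelled control, against 0, 0.0298, 0.104 and 0.0273 TPM in the libraries labelled exosome knockdown. Its summit is 434 bp from the centre of the listed site. It is convergent with the minus-strand TC at 5399926 to 5399944, which is not the arrangement of a PROMPT. The strongest plus-strand TC there, at 5400174 to 5400297, is divergent from that minus-strand TC. It had 4.86, 3.55, 2.07 and 3.70 TPM in the libraries labelled control, against 0.205, 0.0298, 0 and 0.0547 TPM in the libraries labelled exosome knockdown (edgeR adjusted p = 2.93e-09). Its mean of 0.0724 TPM in the libraries labelled exosome knockdown kept it out of the members. On the minus strand at 5399926 to 5399944, levels averaged 5.27 ± 0.91 TPM in the libraries labelled control, against 7.26 ± 1.85 TPM in the libraries labelled exosome knockdown (SD, n = 4 each), which edgeR did not call (adjusted p = 0.251).

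At the PROMPT of Prosα2, which encodes a subunit of the proteasome, no TC was a member and the nearest member was 270270 bp away. A minus-strand TC at 8256694 to 8256806 had 3.06, 3.26, 2.46 and 2.85 TPM in the libraries labelled control, against 0.319, 0.0894, 0.104 and 0.0820 TPM in the libraries labelled exosome knockdown (edgeR adjusted p = 8.98e-09). Its mean of 0.149 TPM in the libraries labelled exosome knockdown exceeded the limit. The plus-strand TC at 8257047 to 8257089 averaged 238 ± 43.4 TPM in the libraries labelled control, against 356 ± 41.5 TPM in the libraries labelled exosome knockdown, and was lower in the libraries labelled control (log2 fold change -0.63, edgeR adjusted p = 0.0317).

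At E5, a site with RT-qPCR assays for both strands, 7 TCs with a mean of 0.1 TPM or more lay within 500 bp of the centre, and all were higher in the libraries labelled control by edgeR. Of all TCs tested 18.6% were higher, and no share was taken for TCs of this lower floor. None of the 7 met the rule. The plus-strand TC at 26217013 to 26217025 lacked tags in all 4 libraries labelled exosome knockdown and had 0.495, 0.236, 0.517 and 0.326 TPM in the libraries labelled control, under the limit of 0.5 TPM in 3 of them. The minus-strand TC at 26216926 to 26216940 averaged 0.640 ± 0.187 TPM in the libraries labelled control, against 0.04996 TPM in the libraries labelled exosome knockdown, and missed the limit of 0.5 TPM in replicate 1 (0.450 TPM). The nearest member, on the minus strand at 26214842 to 26214846, was 2149 bp away.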

How the data were processed

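CAGE libraries of S2 cells, 4 labelled control and 4 labelled exosome knockdown, were deposited as raw counts of tags whose 5′ end falls on each dm3 position, strand by strand. The authors had removed linkers and low-quality reads and kept reads with a single Bowtie 1.1.1 alignment, and the deposited counts are not normalized. Removal of duplicate reads is not given in the sources used here. Positions of the files count from 0 and are given here from 1.

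TCs were built from positions that held 2 or more tags in any library, joined within 20 bp on a strand, without positions under 0.1 of the summit's pooled tags, and joined again. TPM are tags in a TC per 1000000 tags of the library. Members were chosen by the rule in the text, and the members, neighbour definitions and lists were chosen with earlier results of these data known. Regions are named by a rule: the 10 members with the highest mean and the 5 with the highest counts among those at 0 in the libraries labelled exosome knockdown, the highest and lowest CV, the widest, 3 on each side of the limit, 5 mutual pairs, 3 windows, the study's loci on 3R, the 10 highest strong TCs and the 5 partners that rose and 5 that fell most (1 fell).

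Counts were tested with edgeR 4.0.16 (quasi-likelihood F test, TMM, factors 0.870 to 1.11, R 4.3.3, limma 3.58.1) on TCs with at least 10 tags, at a Benjamini-Hochberg adjusted p of 0.05, two-sided. DESeq2 1.42.0 was an alternative, and the fit was tested on simulated data. Python 3.11.15 was used with matplotlib 3.10.9, scipy 1.17.1, pandas 2.3.3 and numpy 2.4.6. The labels share replicate numbers between groups. Over 23325 TCs averaging 1 TPM or more, deviations of same-numbered libraries correlated with r of 0.100 to 0.450 in 4 of 4 pairs. Other pairs had r of -0.393 to 0.147, so the ranges overlapped. An alternative fit with a replicate block took the numbers to pair the libraries. The main fit held no block, and its calls are unpaired. Any pairing comes from the data, since the labels name no shared day or culture. Libraries with the same label were no copies, since the chi-square statistic of their counts per degree of freedom was 4.69 to 16.1.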

Additional observations from a re-analysis of the deposited data

Results flagged for a closer look

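Of 136 sets of 4 values tested, some of which share a TC, 13 (9.56%) had 1 library that stood apart from the other 3. The measure was Dixon's 95% limit on the gap over the range, which chance passes in about 1 in 20 groups of normal values. Sets of a few tags are not such values, since a tag in only 1 library always passes the limit. The 9.56% can therefore not be set against that rate. The member at 26560128 to 26560132 on the minus strand had 2.97 TPM in replicate 1 of the libraries labelled control, above the others. The member with the lowest CV, at 19746958 to 19747007 on the plus strand, had 1.06 TPM in replicate 4 of the libraries labelled control, where the other 3 lay within 0.945 to 0.949 TPM. Among strong TCs, position 24983853 on the plus strand had 899.9 TPM in replicate 4 of the libraries labelled control, below the others, and the plus-strand TC at 26291774 to 26291775 had 965 TPM in replicate 2, above the others. The minus-strand TC at 18408937 to 18408959 had 218 TPM in replicate 3 of the libraries labelled exosome knockdown, and the TC at 10537202 to 10537204 had 1.04 TPM in replicate 4 of the libraries labelled exosome knockdown, both above the rest of their group. The highest member, at 25615209 to 25615245 on the minus strand, had 0.0820 TPM in replicate 4 of the libraries labelled exosome knockdown, above the others. At the PROMPT of Prosα2, the minus-strand TC at 8256694 to 8256806 had 0.319 TPM in replicate 1 of the libraries labelled exosome knockdown, and the plus-strand TC at 8256848 to 8256867 had 0.217 TPM in replicate 4 of the libraries labelled control, both above the rest of their group. The plus-strand TC at 5399932 to 5399975, at the PROMPT of CG9399, had 0.787 TPM in replicate 1 of the libraries labelled control, above the others, and that at 26217076 to 26217083, at E5, had 0.517 TPM in replicate 3. Both had a tag in only 1 library labelled exosome knockdown, replicate 2 (0.0298 TPM). Over all members, 29 of 366 (7.92%) had a library labelled control apart by this measure, which was replicate 3 for 17 of them.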

How the results depend on the processing

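The number of members follows the limits of the rule. It was 156 with a limit of 0.02 TPM in the libraries labelled exosome knockdown and 606 with 0.1 TPM, 934 with a floor of 0.25 TPM in the libraries labelled control and 124 with 1 TPM. Merging, trimming, TMM sizes, thinning and the start of a TC gave between 270 and 403, and leaving out a library in turn gave 333 to 565, with 313 to 349 of the 366 found again by overlap. Building TCs in another way replaced more of them, since 205 were found again without trimming, 233 with merging within 50 bp and 268 with merging within 10 bp. A divergent partner was found for 27.3% of members within 250 bp, 59.3% within 1000 bp, 72.4% with partners of at least 0.1 TPM and 27.6% with partners of at least 1 TPM, and for 40.8% to 46.4% without single libraries. A strong TC was found for 10.9% within 250 bp, 27.9% within 1000 bp, 24.0% with a level of 5 TPM and 9.56% with 20 TPM, and for 15.4% to 17.9% without single libraries.

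Genome-wide, 47190 TCs were higher and 14745 lower. With at least 50 tags per TC, where fewer TCs are tested, 25425 were higher. Without single libraries, 38802 to 44957 were higher and 10375 to 15535 lower. Partners called lower were 2 with DESeq2, with at least 50 tags and with the replicate block, and 1 or 2 without single libraries, when 76 to 81 were higher. Of strong TCs near members, 31 were higher and 1 lower without any single library. For TCs within 2 kb of a member, whose alternatives were chosen after seeing the data, without single libraries 689 to 733 were higher and 19 to 31 lower, against 732 and 34, with the fewest lower without replicate 1 of the libraries labelled control (20) and replicate 2 of the libraries labelled exosome knockdown (19). Among 18 named partners and strong TCs under 13 alternatives, 230 of 234 values kept direction and side of the threshold. The TC at 14743991 passed it with at least 50 tags (0.49) and with the replicate block (0.51), and the uncalled TCs at 18408937 and 23109502, with log2 fold changes of -0.033 to 0.28 and -0.20 to 0.020 without single libraries, changed sign without replicate 2 and replicate 4 of the libraries labelled control. The replicate block changed no other call of a named TC. Weak members rest on few tags in the libraries labelled exosome knockdown, so depth limits how far below 0.05 TPM their level there can be resolved.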
